A study of Mus musculus with 30 samples.

Results

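Bright light was compared with no bright light in the retina of Abca4-/-Rdh8-/- mice, in the experiment of the series that also tested drug mixtures. The 6 libraries compared were chosen by their labels and are 3 libraries per group of 30 libraries in all. Mice of both groups carried the Abca4-/- and Rdh8-/- alleles on a C57BL/6J background, were aged 4 to 6 weeks, and had been kept under at most 10 lux in a cycle of 12 h light and 12 h dark. The light group received an intraperitoneal injection of the solvent DMSO and, 30 min later, white light of 10000 lux for 30 min. Its neural retinas were taken 24 h after the light. The no-light group received DMSO and no bright exposure. The same fit held 6 further libraries given light after a mixture of drugs, which entered the estimate of the spread and the filter on low counts. With only the 6 libraries compared, 15429 genes were tested in place of 16007. Male and female mice were used, and the labels do not say whether a library is 1 animal or a pool. The p-values therefore measure the spread between libraries, which may be technical. No wild-type retina was part of the groups, so the response described is that of this double mutant.

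When rhodopsin and the cone opsins absorb light, their chromophore is released as all-trans-retinal. Abca4 is a transporter that moves this aldehyde, bound to a lipid, out of the disc membrane, and Rdh8 is a dehydrogenase that reduces it to retinol. Without both, bright light leaves free all-trans-retinal, which is toxic to photoreceptors. Müller glia span the retina, recycle glutamate and potassium, and respond to injury by making intermediate filaments and cytokine-induced proteins. Injured photoreceptors and glia signal through cytokines of the gp130 family, whose receptors activate JAK kinases and STAT transcription factors. Interferons act through the same class of kinases and factors.

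Gene counts summed to between 20202778 and 21398994 per library without light and between 18481054 and 23891604 after light. Levels are given as CPM, counts relative to the total of the library, scaled by TMM with 1 factor per library estimated from most genes. CPM is not per transcript length, so the level of a gene is compared between libraries. Where genes are grouped, ranked or summed by CPM, longer transcripts count for more. Markers of rods, cones, bipolar, amacrine, ganglion and Müller cells were all present in both groups. Lens-fibre RNA, and genes listed for other ocular tissues, varied within groups. The log2 CPM averaged over the lens-fibre genes Mip, Lim2, Bfsp1, Bfsp2, Grifin and Crygs was 8.92 in no-light replicate 2 and 6.59 in light replicate 3, against 2.30 to 3.35 in the other 4 libraries. Light replicate 3 also had the highest CPM of Rgr, an opsin-like gene of the pigment epithelium and Müller cells (307 CPM against 73.8 and 93.6 CPM in light replicates 1 and 2). Its pigment epithelium genes summed to 2052 CPM, against 640 and 671 CPM in light replicates 1 and 2. Ciliary body and iris genes summed to 1939 CPM in no-light replicate 2, against 252 and 276 CPM in no-light replicates 1 and 3. The lens score does not hold these genes. Abca4 stood at 683, 578 and 724 CPM without light and 390.1, 399 and 428 CPM after light, and it fell by 0.71 ± 0.12 on the log2 scale (adjusted p = 0.00187). Rdh8 stood at 41.3, 31.8 and 46.9 CPM without light and 31.6, 29.8 and 32.9 CPM after light (-0.35 ± 0.14, adjusted p = 0.137), and its groups overlapped. Counts over whole genes do not show which part of a gene was disrupted, so these values do not check the genotype.

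The light response was broad. Of 16007 genes tested, 1241 (7.75%) rose and 876 (5.47%) fell at an adjusted p under 0.05, 2117 (13.2%) together. In 4845 genes (30.3%) the 3 libraries of 1 group all lay above those of the other. Rises were larger than falls. The median log2 fold change was 0.89 over the genes that rose and -0.48 over those that fell, and 0.0069 over all genes tested. A change of at least 2-fold was reached by 559 rises and 101 falls, and of at least 8-fold by 100 rises and 10 falls. With a single library left out, the count of calls lay between 1310 and 2781. It was 2781 without the lens-rich no-light replicate 2, 1343 without no-light replicate 3 (824 higher, 519 lower) and 1310 without light replicate 1 (826 higher, 484 lower). The falls alone numbered 561 without no-light replicate 1 and 546 without light replicate 2. Without both lens-rich libraries, an alternative added after the data were seen, 1392 genes rose and 1120 fell.

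**Figure D1:**
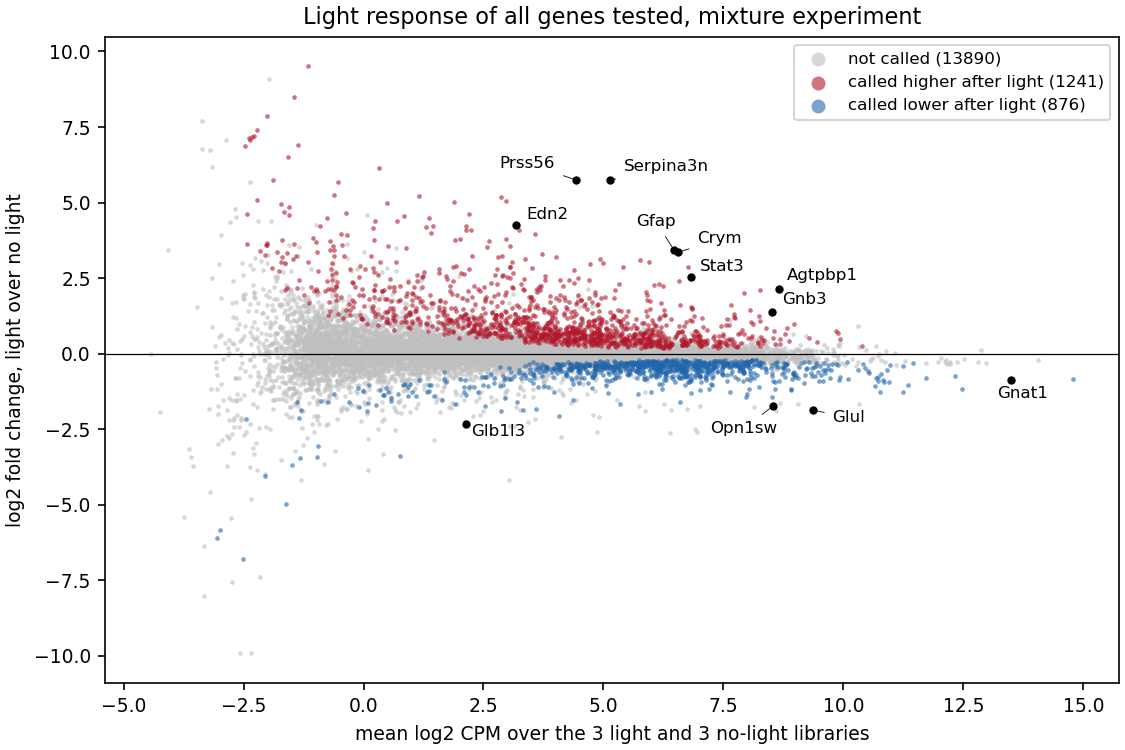
Each point is 1 of the 16007 genes tested. The x axis is the mean log2 CPM over the 6 libraries, and the y axis is the log2 fold change of light over no light. Red points are the 1241 genes called higher and blue points the 876 called lower, and 12 genes named in the text are marked in black. The blue points lie mostly at the right, at high CPM and small folds, while the red points reach larger folds. Fold changes at the far left rest on few counts.

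Falls were concentrated among genes that hold many reads. Of the fifth of genes with the lowest mean CPM, 1.06% fell and 6.40% rose, and of the fifth with the highest, 15.5% fell and 6.28% rose. The median CPM without light was 86.0 in the genes that fell and 11.5 in those that rose. The summed CPM of the genes that fell decreased by 94288, and that of the genes that rose increased by 29481. These sums depend on the scaling, since TMM-scaled CPM does not add up to a fixed total. Over all genes tested the sum was 1029260 without light and 923807 after light. The TMM factors were 0.958 to 0.982 without light and 1.05 to 1.10 after light. The sums are therefore not a measure of RNA lost or gained. The precision also rose with the level: the median SE of a log2 fold change was 0.46 in the genes with the lowest CPM and 0.084 in those with the highest. A change of a given size was therefore easier to detect at high counts.

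**Figure D2:**
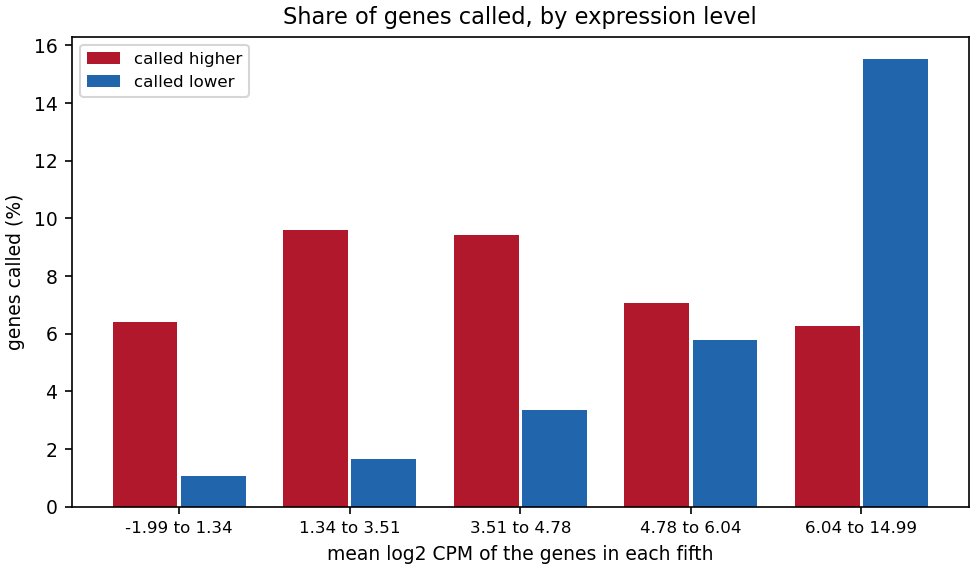
Bars give the percent of genes called higher (red) and lower (blue) after light in 5 groups of genes of equal size. Groups are ordered by mean log2 CPM over the 12 libraries of the fit (x axis, with the range of each group). The share called lower goes from 1.06% to 15.5% from left to right, while the share called higher stays between 6.28% and 9.59%.

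Rod genes fell together. Of 30 genes of rod phototransduction and the outer segment, 24 fell, none rose, and 6 did not pass the test. That is 80% called, against 13.2% over all genes, and the median log2 fold change was -0.80. Gnat1, the rod transducin alpha subunit (ENSMUSG00000034837, chromosome 9, 107674474 to 107679712 in GRCm38.p3), stood at 16157, 14115 and 16923 CPM without light and 8162, 8066 and 9374 CPM after light, a change of -0.88 ± 0.11, adjusted p = 0.000419. Every light library lay below every no-light library, by a wide margin. Its beta subunit Gnb1 changed by -1.17 ± 0.16 and its gamma subunit Gngt1 by -1.08 ± 0.19. The light-activated phosphodiesterase subunits followed, at -0.80 ± 0.14 for Pde6a, -0.96 ± 0.13 for Pde6b and -0.94 ± 0.13 for the inhibitory Pde6g. Pdc, phosducin, which binds the transducin beta and gamma subunits, stood at 4254, 3364 and 3761 CPM without light and 1413, 1569 and 1767 CPM after light, a change of -1.26 ± 0.14, adjusted p = 0.000165. Falls of similar size were seen in the disc-rim proteins Prph2 (-0.73 ± 0.12) and Rom1 (-0.67 ± 0.12), the cGMP-gated channel subunits Cnga1 (-0.92 ± 0.17) and Cngb1 (-0.81 ± 0.11), and recoverin, Rcvrn (-0.82 ± 0.10). The summed counts of the list took 9.92 to 12.2% of a library without light and 6.68 to 7.81% after light. In bulk RNA, fewer rods and less RNA per rod cannot be told apart. Impg2, a proteoglycan of the matrix around photoreceptors, was the member of this list above 0, at 1164, 617 and 1062 CPM without light and 2214, 1534 and 1633 CPM after light, and it did not pass the test (log2 fold change 0.92 ± 0.28, adjusted p = 0.0501).

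**Figure D3:**
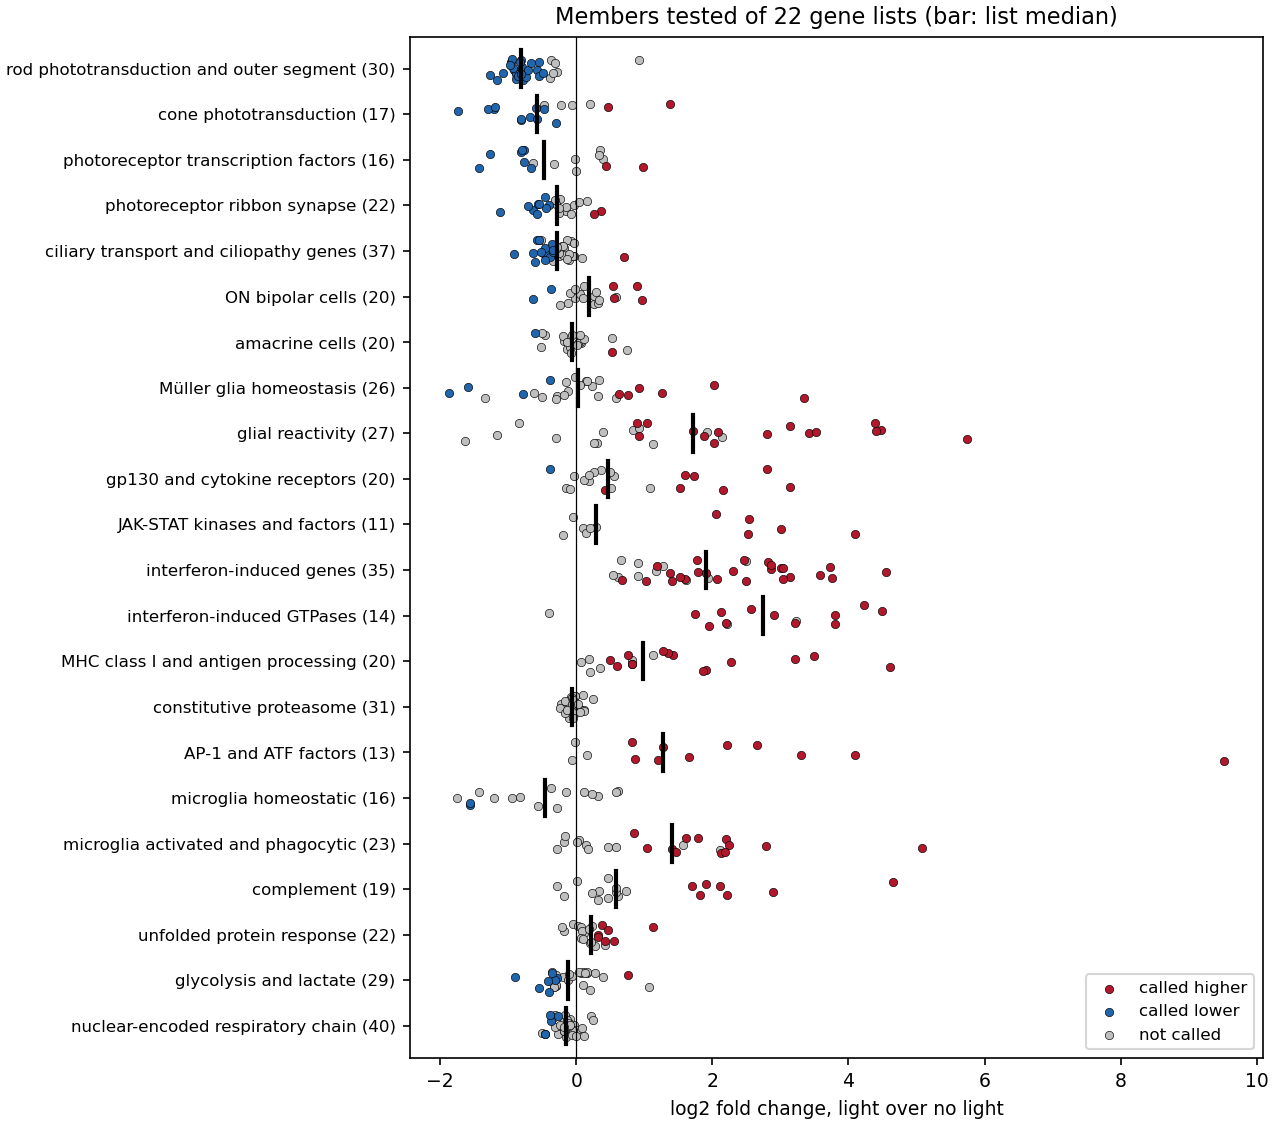
Each row is a gene list with the number of its members tested in parentheses, and each point is a member at its log2 fold change of light over no light (x axis). Red and blue points passed the test as higher and lower, grey points did not, and the black bar is the median of the list. Photoreceptor lists lie left of 0, with the rod median at -0.80, and the interferon, glial reactivity and AP-1 lists lie right of 0. The point at the far right is Fosl1, whose fitted value has no counts without light behind it.

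Most cone genes fell as well. Of 17 cone phototransduction genes, 11 fell and 2 rose (76.5%, against 13.2% over all genes), with a median of -0.58. Opn1sw, the short-wavelength opsin of mouse cones, stood at 689, 671 and 703 CPM without light and 199, 141 and 279.6 CPM after light, a change of -1.74 ± 0.23, adjusted p = 0.000497. The medium-wavelength opsin Opn1mw changed by -0.81 ± 0.10, the cone transducin Gnat2 by -1.21 ± 0.17 and the potassium channel subunits Kcnv2 and Kcne2 by -1.19 ± 0.13 and -1.29 ± 0.12. Gnb3 and Pde6c moved the other way. Gnb3, the beta subunit of cone transducin that ON bipolar cells also make, stood at 215, 220.3 and 248 CPM without light and 620.2, 569 and 589.9 CPM after light, a change of 1.38 ± 0.10, adjusted p = 1.2e-05. Pde6c, the cone phosphodiesterase, stood at 117, 109 and 108 CPM without light and 169, 156 and 136 CPM after light and changed by 0.46 ± 0.10, adjusted p = 0.00911. In both genes the light libraries lay above the no-light libraries without overlap. Groups did not overlap in 30.3% of all genes tested.

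Transcription factors of photoreceptors changed in both directions. Of 16 tested, 7 fell and 2 rose (56.25%, against 13.2% over all genes), with a median of -0.48. Nrl, the factor that sets the rod fate, stood at 3005, 2244 and 2831 CPM without light and 1065, 999 and 1309.8 CPM after light (-1.26 ± 0.16, adjusted p = 0.000311), and its target Nr2e3, which represses cone genes in rods, at 620.3, 510.1 and 686 CPM without light and 219, 200.2 and 256 CPM after light (-1.43 ± 0.13, adjusted p = 4.72e-05). Crx, which acts in rods and cones, changed by -0.77 ± 0.11, and the nuclear receptors Esrrb and Rorb by -0.77 ± 0.086 and -0.79 ± 0.091. Neurod1, a basic helix-loop-helix factor of photoreceptors and amacrine cells, rose, from 356 ± 20.8 to 700.5 ± 33.5 CPM (SD, n = 3), by 0.98 ± 0.11, adjusted p = 0.000185. Mef2d rose by 0.43 ± 0.10, and this call was lost without light replicate 1 (adjusted p = 0.0566).

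Genes of the cilium and the ribbon synapse, the structures at both ends of a photoreceptor, also gave more falls than rises. Of 37 genes of ciliary transport and ciliopathy genes, 13 fell and 1, Ift57, rose (0.70 ± 0.088), with a median of -0.28. That is 37.8% called, against 13.2% over all genes. Bbs9, part of the BBSome cargo complex, changed by -0.92 ± 0.15, and Pde6d and Unc119, which carry lipid-modified proteins into the outer segment, by -0.55 ± 0.091 and -0.63 ± 0.12. The count of falls was 7 without no-light replicate 1 or light replicate 1, and 8 without no-light replicate 3 or light replicate 2. Of 22 genes of the photoreceptor ribbon synapse, 9 fell and 2 rose (50%), and the median was -0.28. Rims2, an active-zone scaffold, changed by -0.58 ± 0.092, Cabp4, which tunes the photoreceptor calcium channel, by -0.63 ± 0.11, and the vesicular glutamate transporter Slc17a7 by -0.56 ± 0.11. Nxnl1, the source of rod-derived cone viability factor, was listed with them and changed by -1.11 ± 0.15, adjusted p = 0.000509. The 2 rises were in Ctbp2 (0.36 ± 0.094), which encodes the ribbon protein and a repressor, and the synaptotagmin Syt1 (0.26 ± 0.067). Each of those calls was lost in 4 of the 6 single-library omissions, among them that of no-light replicate 3 (adjusted p = 0.0748 and 0.11).

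Of 21 genes of retinoid clearance and visual cycle, 5 fell and 1 rose (28.6%, against 13.2% over all genes), with a median of -0.22. Besides Abca4, the falls were in Rdh12, another photoreceptor retinol dehydrogenase (-0.90 ± 0.15), Dhrs3 (-0.67 ± 0.10), Dhrs7 (-0.34 ± 0.088) and Rlbp1, the retinaldehyde carrier of Müller and pigment epithelial cells (-0.39 ± 0.093). The call of Dhrs7 was lost in 5 single-library omissions (adjusted p from 0.0578 to 0.112) and that of Rlbp1 in 4 (adjusted p from 0.056 to 0.0734). Without both lens-rich libraries 9 genes of the list fell and none rose. The count of falls was 3 without no-light replicate 1 or 3 and without light replicate 1 or 2. The pigment epithelium genes Rpe65 and Lrat, the isomerase and acyltransferase of the cycle, did not pass the test. Rpe65 stood at 77.4, 27.0 and 71.5 CPM without light and 12.0, 12.2 and 60.0 CPM after light.

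Markers of inner retinal neurons moved in both directions. Of 20 amacrine genes 1 rose and 1 fell (10%, near the background of 13.2%). Of 18 retinal ganglion genes 2 rose (11.1%, against 7.75% of all genes that rose). Of 11 horizontal cell genes 3 rose and 3 fell (54.5%). Gap43, a growth-cone protein listed with ganglion cells, stood at 23.2, 28.8 and 26.2 CPM without light and 49.1, 53.7 and 47.7 CPM after light, a change of 0.94 ± 0.089, adjusted p = 5.95e-05. Of 20 ON bipolar genes 4 rose and 2 fell (30%), with a median of 0.19. Trpm1, the cation channel that opens in ON bipolar cells when light falls on the rods, rose by 0.89 ± 0.13 (adjusted p = 0.0011), from 96.2, 106 and 93.4 CPM without light to 185, 182 and 180.4 CPM after light. Grik1, a kainate receptor subunit of OFF bipolar cells that was listed here, rose by 0.97 ± 0.12. Gnb5, the partner of the photoreceptor and bipolar RGS proteins, and Prkca, protein kinase C alpha, fell, by 0.64 and 0.37 on the log2 scale.

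Homeostatic genes of Müller glia changed in both directions, and the glial reactivity genes that changed all rose. Of 26 genes of Müller glia homeostasis 6 rose and 4 fell (38.5%, against 13.2% over all genes), with a median of 0.021. Of 27 glial reactivity genes 15 rose and none fell (55.6%), with a median of 1.72. Glul, glutamine synthetase, which turns the glutamate taken up by Müller cells into glutamine (ENSMUSG00000026473, chromosome 1, 153899944 to 153909723), stood at 1129, 1486 and 1206 CPM without light and 313, 363 and 369.7 CPM after light. That is a log2 fold change of -1.87 ± 0.13, adjusted p = 1.2e-05, with a wide gap between the groups. Spc25, a kinetochore gene listed as a Müller marker, changed by -1.6 ± 0.11, adjusted p = 1.2e-05. Crym, which binds thyroid hormone, went the other way, from 26.6, 35.3 and 27.0 CPM without light to 341, 312 and 252 CPM after light, by 3.35 ± 0.23, adjusted p = 1.2e-05. Cp, ceruloplasmin, the copper-bearing ferroxidase, rose from 123 ± 46.4 to 499 ± 47.6 CPM (SD, n = 3) (2.02 ± 0.26), and the glutamate transporter Slc1a3 rose by 0.75 ± 0.13. Abca8a fell, by 0.78 on the log2 scale. Slc1a2, Aqp4 and S100b, which astrocytes share with Müller cells, did not pass the test, at -0.14 ± 0.12, -0.017 ± 0.14 and -0.47 ± 0.19.

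Several glial reactivity genes changed by large folds. Gfap, the intermediate filament of astrocytes and of injured Müller cells, stood at 18.0, 43.9 and 22.7 CPM without light and 308, 339.8 and 261 CPM after light, a change of 3.42 ± 0.41, adjusted p = 0.000251. The highest no-light value was that of replicate 2, which was rich in lens RNA. Serpina3n, a secreted protease inhibitor of the acute phase, stood at 3.20, 10.9 and 2.33 CPM without light and 208, 246 and 420.1 CPM after light (5.74 ± 0.84, adjusted p = 0.00092), and light replicate 3 was the highest of the light libraries. Nes, nestin, rose by 2.80 ± 0.27, Lcn2, a siderophore-binding protein, by 3.52 ± 0.34, Osmr by 3.13 ± 0.45, Timp1 by 4.40 ± 0.67, and the metalloreductase Steap4 by 4.47 ± 0.53. Astrocyte markers gave 2 rises in 7 members, Gfap itself and Aldh1l1 (2.58 ± 0.19), while Pax2, a defining factor of astrocytes, stood at 0.355, 0.148 and 0.381 CPM without light and 0.527, 0.496 and 0.103 CPM after light. Of 31 progenitor and cell cycle genes 7 rose and none fell (22.6%, against 13.2% over all genes), with a median of 0.24. Among them were Notch1 (1.42 ± 0.22), Mcm4 (0.81 ± 0.087) and Ccnd3 (0.80 ± 0.14). Without light replicate 1 the count of rises was 4.

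**Figure D4:**
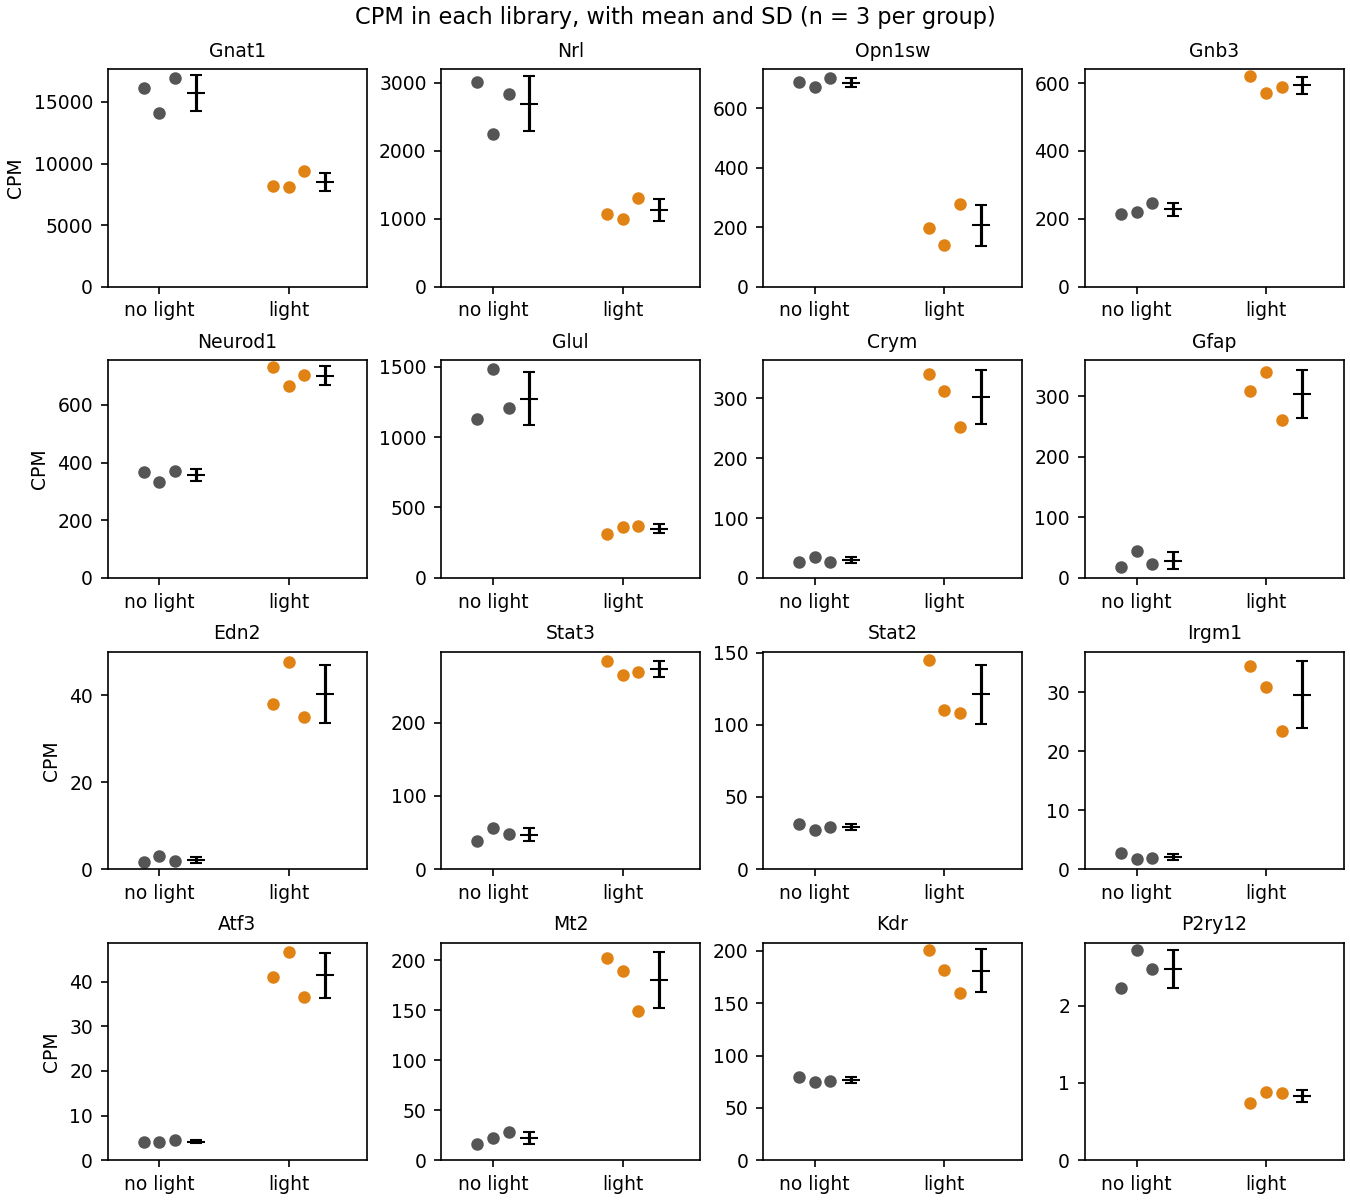
CPM in each library (points) for 16 genes, no light in grey and light in orange, with the mean and SD of the 3 libraries beside them and every y axis starting at 0. In each of the 16 genes the points of both groups are separate, as in 30.3% of all genes tested. Gnat1, Nrl, Opn1sw, Glul and P2ry12 are lower after light, and the other 11 are higher.

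Genes listed as stress signals of photoreceptors rose in part. Of 19 tested, 8 rose and none fell (42.1%, against 13.2% over all genes), with a median of 0.57. The list also holds genes that are not signals: its largest change, 6.16, is that of Bcl3, a nuclear protein described below. Bulk RNA does not show which cells made these transcripts. Edn2, an endothelin that stressed photoreceptors make (ENSMUSG00000028635, chromosome 4, 120161206 to 120167360), stood at 1.57, 2.97 and 1.76 CPM without light and 38, 47.8 and 35.0 CPM after light, a change of 4.26 ± 0.70, adjusted p = 0.00187. Its receptor on glia, Ednrb, rose from 5.43, 8.01 and 4.67 CPM without light to 39.5, 29.7 and 27.8 CPM after light (2.42 ± 0.28, adjusted p = 0.000174). The growth factor Fgf2 rose by 2.08 ± 0.30 and Bdnf by 0.89 ± 0.15. Lif, a cytokine of the gp130 family, stood at 0.203, 0.544 and 0.286 CPM without light and 8.95, 6.33 and 6.69 CPM after light (4.39 ± 0.69, adjusted p = 0.0015), and Clcf1, of the same family, rose by 2.06 ± 0.33. Il27, of a related family, had 1 count in the 3 no-light libraries and 80 in the light libraries, a ratio of 71.2 with a counting interval of 12.4 to 2848 at 95% confidence. The ligand Cntf did not pass the test, at 0.92 ± 0.50 (adjusted p = 0.271).

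Some receptors and signal carriers of these cytokines rose. Of 20 gp130 and other cytokine receptor genes 7 rose and 1 fell (40%, against 13.2% over all genes), with a median of 0.46. Il6st, the gp130 subunit itself, stood at 112, 124 and 114 CPM without light and 351, 347 and 362 CPM after light (1.59 ± 0.13, adjusted p = 2.45e-05), and its partners Osmr and Il6ra rose by 3.13 ± 0.45 and 2.80 ± 0.33. The tumour necrosis factor receptor Tnfrsf1a and the interleukin-1 receptor Il1r1 rose by 2.16 ± 0.30 and 1.73 ± 0.21. Ifngr1, a subunit of the interferon-gamma receptor, was the member that fell, by 0.39 on the log2 scale, a call lost without no-light replicate 3 (adjusted p = 0.101) and without light replicate 1, 2 or 3 (adjusted p = 0.0637, 0.0877 and 0.0583). Among 11 kinases and factors 5 rose and none fell (45.5%), with a median of 0.29. Stat3, the main factor below gp130, stood at 37.7, 55.8 and 47.4 CPM without light and 285, 264 and 269.6 CPM after light (2.54 ± 0.27, adjusted p = 0.000116). Stat2, which carries interferon signals, stood at 31.5, 26.8 and 29.3 CPM without light and 145, 110.1 and 108 CPM after light (2.05 ± 0.15, adjusted p = 1.59e-05). Irf9, its partner in the complex that binds interferon-response elements, rose by 3.00 ± 0.21. Jak3, the kinase of the common gamma chain receptors, rose from 0.812, 1.04 and 1.29 CPM without light to 21.9, 15.9 and 16.4 CPM after light (4.10 ± 0.46, adjusted p = 0.000161). In all 4 the groups did not overlap, as in 30.3% of all genes tested.

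Some feedback inhibitors of the pathway rose too. Of 16 inhibitor genes 6 rose and 1 fell (43.75%, against 13.2% over all genes), with a median of 0.11. Socs3, which blocks gp130, stood at 2.34, 3.86 and 2.86 CPM without light and 51.2, 44.2 and 44.6 CPM after light (3.95 ± 0.38, adjusted p = 6.23e-05), and Socs1, which blocks interferon receptors, at 0, 0.0989 and 0.238 CPM without light and 2.41, 2.33 and 2.01 CPM after light (4.23 ± 0.66, adjusted p = 0.00132). Cish rose by 2.21 ± 0.22 and the phosphatases Ptpn1 and Ptpn2 by 1.36 ± 0.18 and 0.60 ± 0.071. Pias3, named as an inhibitor of activated Stat3 and known in rods as a partner of Crx and Nr2e3, fell, from 99.3, 97.1 and 112 CPM without light to 55.8, 53.1 and 61.1 CPM after light (-0.86 ± 0.077, adjusted p = 4.45e-05). The fall of Pias3 was not called for its most abundant transcript in FPKM (adjusted p = 0.135).

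**Figure D5:**
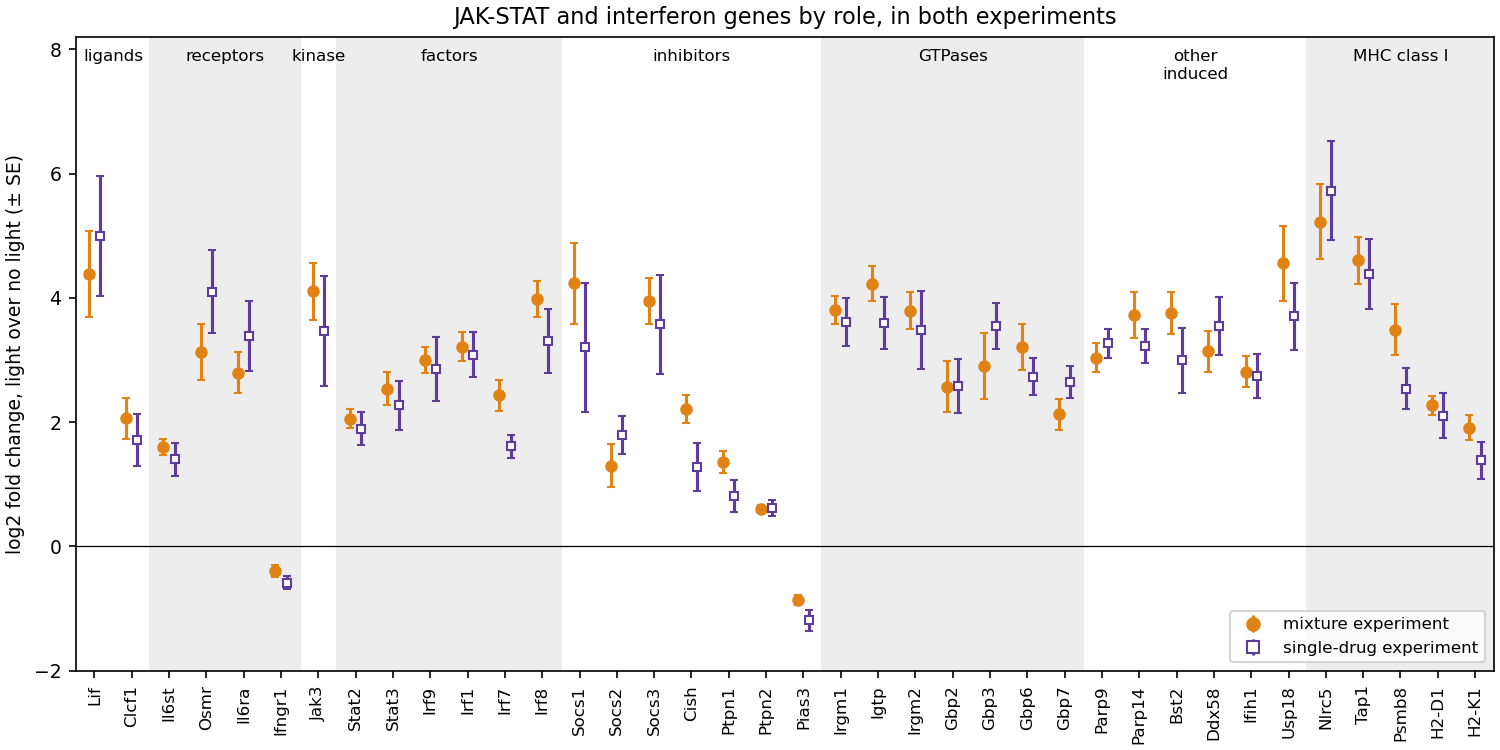
Log2 fold change of light over no light with its SE for 38 genes of the JAK-STAT and interferon pathways, grouped by role along the x axis. Filled circles are the mixture experiment and open squares the single-drug experiment, which shares no library with it. The ligands, Jak3, the STAT and IRF factors, the GTPases and the MHC class I genes are above 0 in both, and Ifngr1 and Pias3 are below 0 in both.

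Interferon-induced genes rose together. Of 35 tested, 25 rose and none fell (71.4%, against 13.2% over all genes). All 35 had a log2 fold change above 0, with a median of 1.91. Parp9 and Parp14, ADP-ribosyltransferases that are induced by interferon, rose by 3.04 ± 0.24 and 3.73 ± 0.37. The sensors of viral RNA Ifih1 and Ddx58 rose by 2.81 ± 0.25 and 3.14 ± 0.33, and Bst2, which tethers budding virus, stood at 0.762, 1.29 and 1.00 CPM without light and 17.0, 13.6 and 10.9 CPM after light (3.76 ± 0.33, adjusted p = 4.34e-05). The immunity-related GTPases and guanylate-binding proteins, which attack the vacuoles of intracellular parasites, form a list of their own. Of 14 tested 11 rose and none fell (78.6%), with a median of 2.74. Irgm1 stood at 2.69, 1.68 and 1.95 CPM without light and 34.5, 30.8 and 23.4 CPM after light (3.81 ± 0.22, adjusted p = 6.28e-06), Igtp at 1.17, 0.890 and 1.00 CPM without light and 21.6, 23.8 and 12.1 CPM after light (4.23 ± 0.28, adjusted p = 1.2e-05) and Irgm2 at 0.914, 0.939 and 1.43 CPM without light and 18.5, 17.8 and 9.47 CPM after light (3.79 ± 0.30, adjusted p = 2.15e-05). In all 3 light replicate 3 was the lowest of the light libraries and still far above the no-light group. Several members of these families are near copies of each other, and the estimated counts share ambiguous reads among them, so the split between close paralogs is uncertain.

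Among 22 interferon regulatory factors and nucleic acid sensors 12 rose and none fell (54.5%, against 13.2% over all genes). The median was 1.10, and 7 rose without light replicate 1. Irf1 stood at 2.28, 2.57 and 2.38 CPM without light and 26.1, 23.2 and 18.1 CPM after light (3.22 ± 0.23, adjusted p = 1.53e-05), Irf7 at 6.30, 8.40 and 11 CPM without light and 59.3, 46.0 and 33.8 CPM after light (2.43 ± 0.25, adjusted p = 0.000103) and Irf8, a factor of microglia and myeloid cells, at 0.660, 0.741 and 0.524 CPM without light and 11.1, 11.1 and 8.59 CPM after light (3.99 ± 0.29, adjusted p = 1.53e-05). Nlrc5, the transactivator of MHC class I genes (ENSMUSG00000074151, chromosome 8, 94472763 to 94527272), rose from 0.102, 0.890 and 0.238 CPM without light to 20.9, 16.5 and 9.11 CPM after light (5.22 ± 0.61, adjusted p = 0.000197). Of 20 genes of MHC class I and antigen processing 14 rose (70%), none fell, and all 20 were above 0, with a median of 0.975. Tap1, which carries peptides into the endoplasmic reticulum, stood at 1.12, 1.24 and 0.524 CPM without light and 31.4, 23.5 and 15.3 CPM after light (4.61 ± 0.38, adjusted p = 2.86e-05), and the heavy chains H2-D1 and H2-K1 rose by 2.27 ± 0.15 and 1.91 ± 0.21. The immunoproteasome subunits Psmb8 and Psmb10 rose by 3.49 ± 0.41 and 1.35 ± 0.24. By contrast, none of 31 subunits of the constitutive proteasome passed the test, with a median of -0.066 and a summed level of 2597 to 2777 CPM without light and 2560.0 to 2641 CPM after light. None of the 6 MHC class II genes tested passed either, with a median of 0.056.

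The promoters of 8 called genes that hold a match are shown, because the binding sites of the raised factors are short and can be read in them. Each stretch is 60 bases long, around the match in the RefSeq promoter window in GRCm38.p6, and is written 5′ to 3′ on the strand of the gene. Capitals mark a GAS, the STAT dimer site TTCNNNGAA, or an ISRE, the site of the Irf9 complex, which is a pair of GAAA separated by NN.
Irgm2 (chr11:58214877-58214936, plus strand): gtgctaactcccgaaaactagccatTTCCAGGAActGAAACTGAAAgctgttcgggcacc
Igtp (chr11:58199486-58199545, plus strand): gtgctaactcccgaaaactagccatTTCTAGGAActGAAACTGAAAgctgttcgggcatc
Irgm1 (chr11:48871421-48871480, minus strand): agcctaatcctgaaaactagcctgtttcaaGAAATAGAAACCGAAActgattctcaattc
Bst2 (chr8:71537573-71537632, minus strand): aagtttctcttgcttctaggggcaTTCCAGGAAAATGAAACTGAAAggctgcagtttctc
Irf1 (chr11:53769899-53769958, plus strand): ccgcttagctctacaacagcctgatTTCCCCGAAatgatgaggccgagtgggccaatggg
Socs3 (chr11:117969487-117969546, minus strand): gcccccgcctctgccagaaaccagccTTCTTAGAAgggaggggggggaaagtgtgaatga
Steap4 (chr5:7960332-7960391, plus strand): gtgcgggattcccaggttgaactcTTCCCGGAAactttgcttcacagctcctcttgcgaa
Prss56 (chr1:87183134-87183193, plus strand): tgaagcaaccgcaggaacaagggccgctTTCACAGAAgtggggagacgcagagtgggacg
Both motifs were searched on both strands in windows of 250 bases before to 50 after each start. A GAS was found in 8.3% and an ISRE in 3.44% of all 32851 windows. In Bst2 the GAS overlaps an ISRE, and in Irgm1 and Bst2 overlapping copies of the ISRE run together. The stretches of Irgm2 and Igtp were identical at 58 of 60 bases. Of the 20 MHC class I and antigen processing genes, 18 had a window and 5 of those (27.8%) held an ISRE, against 3.99% of all genes with a window. Of the 27 glial reactivity genes, 24 had a window and 3 (12.5%) held a GAS, against 9.55% of all genes with a window. The AP-1 site TGANTCA, also searched, was in 6 of the same 24 windows (25%), against 8.97% of all genes with a window, and in none of the 12 windows of the AP-1 and ATF genes. For the interferon-induced lists and for all called genes, under 80% had a window, so a share over them is void and not given. A match describes the letters in the window and does not show binding.

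Genes of NF-kappaB signalling rose in part. Of 5 subunits Rela (0.91 ± 0.13), Nfkb2 (2.58 ± 0.48) and Relb (2.21 ± 0.51) rose, and the call of Relb was lost without no-light replicate 3 (adjusted p = 0.0649). Of 20 inhibitors and regulators 8 rose and 1 fell (45%, against 13.2% over all genes), with a median of 0.27. Bcl3, a nuclear IkB protein, stood at 0.102, 0.247 and 0.0476 CPM without light and 11.4, 9.64 and 8.34 CPM after light (6.16 ± 0.77, adjusted p = 0.000309), and Map3k8, a kinase that NF-kappaB precursors hold inactive, rose by 4.22 ± 0.41, adjusted p = 6.66e-05. Tnfrsf12a, the receptor of TWEAK, rose by 2.67 ± 0.25. Tnfaip3, the ubiquitin-editing enzyme A20 that is usually induced by NF-kappaB, fell, from 446, 328 and 444 CPM without light to 149, 157 and 172 CPM after light (-1.35 ± 0.13, adjusted p = 6.32e-05).

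Of 15 chemokines 3 rose and 1 fell (26.7%, against 13.2% over all genes), with a median of 0.56. Ccl2, which attracts monocytes, had 1 count in the 3 no-light libraries and 184 in the light libraries, a ratio of 163.8 with a counting interval of 29.0 to 6504. Its neighbour Ccl12 stood at 0.0508, 0.0989 and 0.0952 CPM without light and 2.85, 3.81 and 3.24 CPM after light (5.24 ± 0.67, adjusted p = 0.00037) and Cxcl16 rose by 0.76 ± 0.15. Cxcl14 fell, by 0.65 on the log2 scale, a call lost without light replicate 1 (adjusted p = 0.0567). Of 10 leukocyte adhesion molecules Vcam1 (1.5 ± 0.22), Icam1 (2.67 ± 0.45) and Itga4 (0.62 ± 0.12) rose and none fell (30%).

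Microglial genes were read in lists of resting and of activated cells. Of 16 homeostatic microglia genes none rose and 2 fell (12.5%, against 5.47% of all genes that fell), with a median of -0.46. In the other list, 12 of 23 genes of activated and phagocytic microglia rose (52.2%, against 7.75% of all genes that rose). None fell, and the median was 1.41. P2ry12, the purinergic receptor of resting microglia, stood at 2.23, 2.72 and 2.48 CPM without light and 0.746, 0.877 and 0.875 CPM after light (-1.57 ± 0.22, adjusted p = 0.000625). Siglech changed by -1.57 ± 0.43, a call lost without no-light replicate 2 (adjusted p = 0.0966), no-light replicate 3 (0.0678), light replicate 1 (0.134) or light replicate 2 (0.098). Cx3cr1 and Csf1r did not pass the test, at 0.24 ± 0.26 and -0.36 ± 0.30. Of the activation genes, Axl, a receptor for dying cells that glia also make, stood at 4.87, 6.87 and 5.76 CPM without light and 27.0, 26.2 and 23.2 CPM after light (2.13 ± 0.22, adjusted p = 9.49e-05), and the tetraspanins Cd63 and Cd9 rose by 1.62 ± 0.17 and 1.47 ± 0.16. Cd68, a macrophage lysosomal protein, stood at 0.660, 0.544 and 0.904 CPM without light and 3.60, 3.39 and 2.73 CPM after light (2.19 ± 0.31, adjusted p = 0.000687) and Clec7a rose by 2.78 ± 0.44. Msr1, a scavenger receptor, had 1 count without light and 51 after light, a ratio of 45.4 with an interval of 7.79 to 1828. Csf1, which supports microglia, rose by 2.25 ± 0.41.

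Of 19 complement genes 7 rose and none fell (36.8%, against 13.2% over all genes), with a median of 0.58. Cfi, a protease that inactivates C3b and C4b, stood at 0.152, 0.148 and 0.0952 CPM without light and 4.26, 2.86 and 3.19 CPM after light (4.65 ± 0.51, adjusted p = 0.000149), and the receptor C3ar1 rose by 2.89 ± 0.38. The count of 7 was 2 without no-light replicate 1 or 3 or light replicate 2, 3 without light replicate 1 and 4 without light replicate 3. C3 and C4b were among the calls lost (adjusted p up to 0.098 and 0.0971). Of the TAM receptors and ligands, Axl and Pros1 (1.82 ± 0.32) rose and Gas6 fell, by 0.48 on the log2 scale. Markers of circulating leukocytes differed by cell type. Of 14 T and NK cell genes 2 could be tested and none passed, Cd3g and Gzmb had no count in any of the 6 libraries, and the list summed to 1.12 to 1.33 CPM without light and 1.56 to 2.06 CPM after light. Of 12 neutrophil genes 3 could be tested and none passed, and Ly6g, Elane, Camp and Ngp had no count. The neutrophil list summed to 13.8 to 20.3 CPM without light and 15.3 to 23.4 CPM after light, most of it Mmp9, a metalloproteinase that other cells also make. The monocyte and macrophage list was higher in every light library, at a sum of 54.3 to 65.5 CPM against 30.2 to 33.7 CPM without light. Of its 12 genes 5 could be tested, all 5 were above 0, with a median of 0.61, and 1 passed the test. That gene was Fn1, a matrix protein that many cells make, which held most of the sum and stood at 30.7, 23.9 and 30.4 CPM without light and 48.9, 59.9 and 44.8 CPM after light (0.85 ± 0.17, adjusted p = 0.00556). Lyz2 and Emr1, markers of macrophages and microglia, did not pass, at 0.33 ± 0.44 and 0.21 ± 0.31. The part of such cells in the immune genes above was not tested. Ccr2, the receptor of Ccl2, was too low to test, at 0, 0.0989 and 0.0476 CPM without light and 0.176, 0.0762 and 0.154 CPM after light. None of the 3 B cell genes and 5 erythrocyte genes tested passed.

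AP-1 genes were raised 24 h after the light. Of 13 AP-1 and ATF genes 10 rose and none fell (76.9%, against 13.2% over all genes), with a median of 1.27. Atf3, induced by many kinds of cell stress, stood at 3.96, 4.00 and 4.57 CPM without light and 41.1, 46.6 and 36.5 CPM after light (3.31 ± 0.29, adjusted p = 4.1e-05), Junb at 0.863, 2.97 and 3.48 CPM without light and 48.7, 40.6 and 36.0 CPM after light (4.09 ± 0.58, adjusted p = 0.000741) and Jun at 17.5, 21 and 21.4 CPM without light and 51.8, 48.0 and 38.6 CPM after light (1.21 ± 0.17, adjusted p = 0.000775). Fosl1 had no count in any no-light library and stood at 4.92, 3.43 and 4.48 CPM after light. It was at least 85.8-fold higher against a floor of 3 counts over the no-light group. Of 33 immediate early genes 15 rose and none fell (45.5%), with a median of 0.56. Among the rises were Gadd45b (3.55 ± 0.37), Zfp36 (2.82 ± 0.32), Nr4a1 (1.65 ± 0.17) and Egr1 (1.85 ± 0.36). Egr2 had 1 count without light and 140 after light, a ratio of 124.6 with an interval of 22 to 4957.

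Stress lists held called genes in shares from 14.3% to 31.8%, against 13.2% over all genes. Mt1 and Mt2, metallothioneins that bind zinc and copper, rose, Mt2 from 15.8, 22.6 and 27.9 CPM without light to 202, 189 and 149 CPM after light (3.03 ± 0.29, adjusted p = 6.78e-05) and Mt1 by 2.24 ± 0.20, and the other 8 genes of metallothioneins and zinc transport did not pass. Of 22 genes of the unfolded protein response 7 rose and none fell (31.8%), with a median of 0.21, among them the chaperone Hspa5 (0.55 ± 0.10, adjusted p = 0.00357) and the factor Xbp1 (0.47 ± 0.10), and 3 rose without no-light replicate 3 or light replicate 2. Of 24 genes of the integrated stress response 4 rose and 2 fell (25%), with a median of 0.079. Atf5 rose by 1.86 ± 0.16, and Vldlr fell, by 0.75 on the log2 scale. Without both lens-rich libraries 7 genes of that list rose, and without no-light replicate 2 alone 8 did. Of 21 heat shock genes 2 rose and 1 fell (14.3%, near the background), of 27 Nrf2 targets 4 rose and 1 fell, and of 19 genes of iron handling and ferroptosis 3 rose and 1 fell. The rises in the iron list were Lcn2, Steap4 and Cp. Without no-light replicate 2 that count was 6, as it was without both lens-rich libraries. The Nrf2 count was 2 without no-light replicate 1 or 3 or light replicate 1 or 2. Of 31 genes of autophagy and lysosome 6 rose and 1 fell, among them the lysosomal membrane protein Lamp2 (1.16 ± 0.10, adjusted p = 4.1e-05), and 2 or 3 rose without no-light replicate 1 or 3 or light replicate 1 or 2.

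Genes of cell death gave calls in both directions. Of 10 genes of necroptosis and pyroptosis 4 rose and none fell (40%, against 13.2% over all genes), with a median of 1.35. Ripk1, the kinase that links death receptors to both survival and necroptosis, stood at 5.03, 6.67 and 5.90 CPM without light and 22.4, 21.5 and 20.6 CPM after light (1.87 ± 0.14, adjusted p = 1.59e-05), and Tnfrsf1a and Casp8 rose by 2.16 ± 0.30 and 1.57 ± 0.32. Casp1 was the fourth, a call lost without no-light replicate 3 (adjusted p = 0.0555) and without light replicate 1 (adjusted p = 0.0686). Of 33 apoptosis genes 5 rose and 4 fell (27.3%), with a median of 0.19. Xiap, an inhibitor of caspases, stood at 1077, 911 and 978 CPM without light and 514, 501 and 564 CPM after light (-0.91 ± 0.13, adjusted p = 0.000688). Parp1, activated by broken DNA, rose by 0.68 ± 0.082, and Mcl1, which protects mitochondria, by 0.44 ± 0.071. The count of rises in the apoptosis list was 3 without no-light replicate 1 or 3 or light replicate 1 or 2, and 8 without no-light replicate 2 or without both lens-rich libraries. That of falls was 2 without no-light replicate 3. Of 18 p53 targets 5 rose and 1 fell (33.3%), with Trp53 itself at 0.94 ± 0.13 and Cdkn1a at 1.14 ± 0.20.

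Metabolic lists differed in their share of called genes, against a background of 13.2%. That background depends on the level, and the lists were not matched for it. In the fifth of genes with the highest CPM, 6.28% rose and 15.5% fell. Of 29 genes of glycolysis and lactate 7 fell and 1 rose (27.6%), with a median of -0.12. Photoreceptors convert most of their glucose to lactate. Slc16a1, a lactate transporter, fell from 282, 219 and 288 CPM without light to 125, 124 and 173 CPM after light (-0.90 ± 0.15, adjusted p = 0.00215), a call kept in every omission of libraries. The glycolytic enzyme Pgam1 changed by -0.41 ± 0.088, a call kept in every single-library omission and lost without both lens-rich libraries (adjusted p = 0.0529). Hk1 rose, from 651, 722 and 757 CPM without light to 1207, 1173 and 1237 CPM after light (0.76 ± 0.12, adjusted p = 0.00131), and Hk2, the hexokinase isoform of photoreceptors, fell by 0.55 on the log2 scale, a call lost without light replicate 1 (adjusted p = 0.0508). The count of falls was 2 without both lens-rich libraries or without light replicate 1, and 3 without no-light replicate 3 or light replicate 2. Of 34 genes of cholesterol and fatty acid synthesis 7 fell and 1 rose (23.5%), with a median of -0.15. Elovl2, which elongates polyunsaturated fatty acids, changed by -0.70 ± 0.13 (adjusted p = 0.00454). The count of falls was 4 without no-light replicate 3 or light replicate 1 or 2. None of 22 genes of the TCA cycle and none of 13 mitochondrially encoded genes passed. Of 40 nuclear-encoded respiratory chain genes 5 fell (12.5%) and none rose, with a median of -0.15. Over all genes 5.47% fell, and in the fifth with the highest CPM 15.5% fell. The count was 0 without light replicate 1, 1 without light replicate 2, 2 without no-light replicate 1 or 3, and 10 without no-light replicate 2. Of 42 cytosolic ribosomal protein genes 32 lay above 0 and 1 rose (2.38%), Rpl18, a call lost in 5 of the 6 single-library omissions (adjusted p from 0.0699 to 0.15).

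Wound matrix genes rose in part. Of 35 genes of wound matrix and YAP targets 12 rose and none fell (34.3%, against 13.2% over all genes), with a median of 0.33, among them the transglutaminase Tgm2 (2.32 ± 0.30), the metalloproteinase Adamts1 (1.93 ± 0.29) and Amotl2 (1.05 ± 0.12). Other signalling and vessel lists had shares near or below that background, which holds both directions. Of all genes 7.75% rose. Of 27 genes of TGF-beta and BMP signalling 3 rose (11.1%), among them Smad5 (1.07 ± 0.076, adjusted p = 1.48e-05), and of 29 genes of Wnt signalling 3 rose (10.3%), among them Ndp (1.6 ± 0.16, adjusted p = 8.5e-05), which encodes norrin, a ligand of retinal vessels. Of 22 hypoxia and angiogenic genes 1 rose and 2 fell (13.6%). Kdr, the main receptor of VEGF, stood at 79.9, 74.8 and 75.7 CPM without light and 201, 181 and 160.1 CPM after light (1.24 ± 0.14, adjusted p = 0.000161), and Apln, the ligand apelin, fell from 1.57, 1.88 and 0.952 CPM without light to 0.132, 0.114 and 0.154 CPM after light (-3.42 ± 0.44, adjusted p = 0.000423). Of 19 endothelial and pericyte genes 2 rose (10.5%), Kdr and Ly6c1, and the call of Ly6c1 was lost whichever library was left out (adjusted p from 0.0507 to 0.143). The vessel markers Pecam1 and Cdh5 did not pass, at 0.045 ± 0.14 and 0.035 ± 0.29. Horizontal and amacrine cells of the retina can also make Kdr.

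The remaining lists gave isolated calls. Of 21 circadian clock genes 3 rose and 2 fell (23.8%, against a background of 13.2% over all genes). A difference between the groups in the time of day of harvest was not tested. Among the rises was Bhlhe40, a repressor in the clock loop (0.63 ± 0.12, adjusted p = 0.00519). The rises of the circadian clock list numbered 1 without light replicate 1 and 5 without no-light replicate 2 or without both lens-rich libraries. Of 25 dopamine and adrenergic receptors and effectors, the targets of the drugs tested elsewhere in the experiment, 2 rose and 2 fell (16%). Adrb1, the beta-1 receptor, fell from 14.3, 13.5 and 15.5 CPM without light to 9.88, 7.85 and 9.83 CPM after light (-0.65 ± 0.13, adjusted p = 0.00657), and the adenylyl cyclases Adcy1 and Adcy6 changed by 0.40 ± 0.082 and -0.62 ± 0.10. Of 23 potassium and water channel genes 1 rose and 2 fell. Aqp1, a water channel of photoreceptors and amacrine cells, stood at 143, 147 and 159 CPM without light and 73.2, 73.0 and 71.1 CPM after light (-1.05 ± 0.056, adjusted p = 4.85e-06). Of 16 lens fibre genes none passed, with a median of -1.89 that was -0.043 without both lens-rich libraries. None of the 15 pigment epithelium, 9 corneal and skin, 7 scleral and 6 oligodendrocyte genes passed. Of 11 ciliary body and iris genes Aqp1 and Col9a1 fell (18.2%). Col9a1, a collagen chain, stood at 13.7, 33.8 and 12.6 CPM without light and 4.87, 5.30 and 6.38 CPM after light (-1.86 ± 0.44, adjusted p = 0.0155), highest in the lens-rich no-light replicate 2, and the part of other ocular tissue in it was not tested. Its call was lost without light replicate 1 (adjusted p = 0.0683) or 2 (adjusted p = 0.0624). Of 9 genes of skeletal and cardiac muscle that could be tested 2 rose (22.2%), the troponin T genes Tnnt1 (1.74 ± 0.13) and Tnnt2. Tnnt2 stood at 0.406, 0.840 and 0.666 CPM without light and 22, 18.9 and 21.7 CPM after light (5.02 ± 0.62, adjusted p = 0.000298). The muscle-defining gene Myod1 had no count in any library, and Ckm averaged 0.412 CPM without light and 0.238 CPM after light.

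Some of the largest single changes lay outside these pathways. Prss56, a secreted serine protease that Müller glia make (ENSMUSG00000036480, chromosome 1, 87183313 to 87188405), stood at 3.60, 1.29 and 4.62 CPM without light and 207, 185 and 119 CPM after light (5.74 ± 0.52, adjusted p = 4.45e-05). Lad1, ladinin, an anchoring-filament protein of epithelia, stood at 1.02, 1.83 and 1.19 CPM without light and 44.2, 42.7 and 48.1 CPM after light (5.06 ± 0.78, adjusted p = 0.00127). Npy4r, a receptor of pancreatic polypeptide, stood at 0.508, 0.791 and 0.428 CPM without light and 6.41, 14.6 and 10.5 CPM after light (4.18 ± 0.60, adjusted p = 0.000824), and Scube1, a secreted EGF-like protein, at 1.07, 2.03 and 0.524 CPM without light and 22.3, 17.9 and 21.1 CPM after light (4.08 ± 0.65, adjusted p = 0.00164). Among the falls, Glb1l3, a galactosidase-like gene, stood at 11.5, 8.5 and 9.66 CPM without light and 2.19, 1.49 and 2.21 CPM after light (-2.34 ± 0.24, adjusted p = 0.000103). Hdc, histidine decarboxylase, which makes histamine, stood at 5.69, 6.82 and 7.57 CPM without light and 1.89, 1.56 and 2.93 CPM after light (-1.66 ± 0.25, adjusted p = 0.00115). Ppap2c, a lipid phosphatase, stood at 75.3, 62.9 and 80.9 CPM without light and 23, 19.1 and 27.5 CPM after light (-1.66 ± 0.16, adjusted p = 5.67e-05), and Insm1, a zinc-finger factor of neuronal precursors, changed by -1.53 ± 0.28, adjusted p = 0.00374. Fam107a and Meig1 changed by -1.6 ± 0.31 and -1.55 ± 0.22.

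Genes with the largest gains in CPM included others. Agtpbp1, a carboxypeptidase that trims glutamates from tubulin, gained most of the genes called, from 209, 185 and 189 CPM without light to 823, 844 and 878 CPM after light (2.13 ± 0.12, adjusted p = 5.05e-06). The vesicle protein gene Sec22c stood at 144, 145 and 155 CPM without light and 659, 624 and 625 CPM after light (2.10 ± 0.19, adjusted p = 4.57e-05). The nuclear import receptors Ipo5 and Tnpo1 rose by 1.45 ± 0.12 (adjusted p = 2.86e-05) and 0.70 ± 0.085 (adjusted p = 0.00026), Ipo5 from 162 ± 15.9 to 443 ± 13.3 CPM (SD, n = 3). The replacement histone gene H3f3a rose by 0.48 ± 0.091, adjusted p = 0.0046. In each of these 5 genes the groups did not overlap, as in 30.3% of all genes tested.

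Of 14499 genes with a coding transcript 13.8% were called, and of 1508 without one 7.56%. The lincRNA BC055402 stood at 14.7, 12.7 and 15 CPM without light and 3.69, 4.38 and 3.14 CPM after light (-1.91 ± 0.14, adjusted p = 1.53e-05), and the antisense gene Gm14091 and 2810030D12Rik changed by -1.73 ± 0.19 and -1.47 ± 0.26. The kit kept the strand of the RNA, but the sources used here do not give whether the counting used it, so reads of Gm14091 and of the gene it overlaps may not be separated. Gm9429, annotated as a processed pseudogene and so open to reads of its parent gene, had no count without light and 67 after light, at least 19.9-fold higher. Gm10425, a lincRNA, had 20 counts without light and none after light, at least 7.49-fold lower. 9130015L21Rik and Gm16174 were likewise without counts in the no-light libraries, and Gm27427 without counts in the light libraries, but each of these 3 calls was lost in 3 or more of the 6 single-library omissions.

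At the level of single transcripts, 614 of 39616 rose and 503 fell, 1117 (2.82%) in all. The estimated counts divide ambiguous reads among transcripts, so transcripts of 1 gene are not independent. With a single library left out the count was 647 without no-light replicate 1, 544 without no-light replicate 3, 493 without light replicate 1 and 539 without light replicate 2. Il6st rose in both of its main transcripts, by 1.56 and 1.6 on the log2 scale. No called gene had transcripts of at least 20% of its counts called in both directions. That was so in 2 genes that are named after their values were seen and are not called as a whole. In Jmjd1c, the transcript Jmjd1c-001 rose by 1.29 ± 0.20 (adjusted p = 0.00663) while Jmjd1c-009 changed by -1.16 ± 0.27 (adjusted p = 0.04998). In Mid1, the transcript Mid1-201 rose by 1.56 ± 0.36 (adjusted p = 0.0487) while Mid1-002 changed by -1.38 ± 0.25 (adjusted p = 0.0144). The authors' deposited table of changed transcripts holds 400 transcripts of 369 genes with a fold change above 0 after light and 121 transcripts of 106 genes with one below 0. Its adjusted p comes from an F test over the groups of the mixture experiment, drug groups included, per the file header, so it is not a list of light calls. Of its 369 genes above 0, 337 were called higher here and 2 lower. Of its 106 genes below 0, 85 were called lower here and 0 higher. Both rest on the same libraries, so this overlap is not independent support.

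The comparison of light with no light was made again in the single-drug experiment, in 6 other libraries. There 1846 of 16249 genes rose (11.4%) and 2049 fell (12.6%), 3895 (24%) in all. Of the 1236 genes that rose in the mixture experiment and could be tested there, 855 (69.2%) rose, and 1169 had the same sign. Of the 876 that fell, 695 (79.3%) fell. None was called in the opposite direction. The shared genes were 46.6% of the rises and 34.0% of the falls of the single-drug experiment. Over 15868 genes tested in both, the log2 fold changes had Pearson's r = 0.53 and Spearman's rho = 0.44. These are correlations across genes, and genes of 1 library are not independent. A test of the difference between both light effects called none of 16645 genes at an adjusted p under 0.05 with edgeR (0% called), while 2518 (15.1%) had an unadjusted p under 0.05. limma voom called 11 and DESeq2 423. Leaving out single-drug light replicate 3 gave 126 calls and leaving out no-light replicate 2 gave 4. The median over the rod list was -0.80 here and -1.24 there. Gnat1 changed by -1.44 ± 0.17 there, Prss56 by 6.5 ± 1.07, Stat3 by 2.27 ± 0.40, Glul by -1.73 ± 0.27 and Hk1 by 0.065 ± 0.17, and no gene among them passed the test of the difference (adjusted p = 0.216, 0.8, 0.84, 0.873 and 0.148). The 6 drug libraries of the mixture experiment were given light after BMT (2-bromo-α-ergocryptine, metoprolol and tamsulosin) or MDB (metoprolol, doxazosin and 2-bromo-α-ergocryptine). In them Prss56 averaged 2.59 CPM with BMT and 2.28 CPM with MDB, and Glul 1255 and 1335 CPM.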

How the data were processed

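RNA of the neural retina was sequenced as stranded poly(A) libraries, per the labels' protocols. The submitters' processing notes name Trimmomatic, Bowtie2, TopHat2, eXpress, edgeR and limma and the build GRCm38.p3. No version, and no strand setting of the counting, is given in the sources used here. The authors deposited estimated counts per transcript (eXpress effective counts), TMM-scaled FPKM per transcript, and a table of changed transcripts with log2 fold changes and adjusted p-values.

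Estimated counts were summed per Ensembl gene, rounded, filtered with filterByExpr and TMM-scaled. They were tested with edgeR 4.0.16 in R 4.3.3 (quasi-likelihood) over the 4 groups of the mixture experiment, with Benjamini-Hochberg adjustment over all genes tested and a threshold of 0.05. Errors beside log2 fold changes are standard errors, computed as the log2 fold change divided by the square root of F. CPM errors are SDs. The repeat in the single-drug experiment used the same steps in its 6 groups, and the difference between both light effects was tested in 1 fit of all 10 groups. Alternatives used limma 3.58.1 (voom, or log2 of FPKM + 1) and DESeq2 1.42.0. With 3 libraries per group, counts of 15783 genes were simulated with 200 genes changed, as many up as down. There edgeR recovered 32% of 50 genes changed 1.5-fold, 66% of those changed 2-fold and 94% of those changed 8-fold, with 3 false calls. The data held more called genes, with falls mostly at high counts, so these rates may not carry over to the calls here. The 95% intervals of count ratios are exact and cover counting error only.

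The genes and the 71 lists were chosen with earlier results of these data known. Named genes are the 15 largest rises and falls among genes whose groups did not overlap and whose log2 CPM averaged 1 or more, the 10 largest gains and losses in CPM, up to 4 members of a list by adjusted p with those that moved against it, 8 genes of prior interest, and the 3 largest noncoding changes in each direction. Members that did not pass are named as cell markers. A few genes that this rule names are not reported here. Promoter windows and gene starts are from RefSeq in GRCm38.p6.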

Additional observations from a re-analysis of the deposited data

How the results depend on the processing

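The split into 1241 rises and 876 falls lay within 1.5 times of the reported counts with RLE size factors, no filter, limma voom, DESeq2, a lens-score covariate, only the 6 libraries compared, and without both lens-rich libraries. A test against a 1.5-fold change left 420 genes, 360 higher and 60 lower. The authors' FPKM per transcript, tested with limma, gave 578 falls. Leaving out 1 library gave 1310 to 2781 genes, 824 to 1473 higher and 484 to 1308 lower, and 493 to 1175 transcripts. Only the 6 libraries gave 629 transcripts. The difference between both light effects gave 11 genes with limma voom, 423 with DESeq2 and 0 to 126 with a library left out. The causes were not tested. Ift122 had a log2 fold change of 0.021 in FPKM of its top transcript (adjusted p = 0.963), against a fall in summed counts. Of 479 genes compared, 16 lost their call and 2 gained one with the replicate block, and between 18 and 106 lost it with 1 library left out.

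Same-numbered libraries deviated from their group means with correlations of 0.104, -0.102 and -0.256. Libraries with different numbers gave -0.221 to 0.260. These few values show no pairing by replicate number but cannot exclude one. With the number as a replicate block 2014 genes were called (1176 higher, 838 lower), 897 transcripts, and none for the difference between experiments.

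Depth limits low genes: in the fifth of genes with the lowest CPM the median SE of a log2 fold change was 0.46. In simulated counts with 200 genes changed, 16 of 50 changed 1.5-fold were recovered, a rate that may not carry over to these data. Whether libraries are separate animals is not stated, and 24 h is the only time after light sampled. RNA of lens and of genes listed for other ocular tissues differed within groups.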

Other observations

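Lad1 and Tnnt2, which rose to similar extents, are neighbours on the plus strand of chromosome 1 in GRCm38.p3. Lad1 spans 135818598 to 135833342 and Tnnt2 spans 135836354 to 135852260, with 3011 bases between them. Lad1 averaged 1.34 ± 0.428 CPM without light and 45.0 ± 2.78 CPM after light (SD, n = 3) and Tnnt2 0.638 ± 0.218 CPM without light and 20.9 ± 1.69 CPM after light (SD, n = 3), with log2 fold changes of 5.06 ± 0.78 and 5.02 ± 0.62. Upstream on the same strand Phlda3, a p53 target at 135766119 to 135769136, rose less (1.06 ± 0.22, adjusted p = 0.00709). The genes on either side of these 3, Csrp1 and Pkp1, did not pass the test (adjusted p = 0.611 and 0.0663). Whether reads that run from Lad1 into Tnnt2 were counted for Tnnt2 was not tested.

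Among horizontal cell genes the calls that held in every omission of 1 library went both ways. The factor Onecut2 rose, from 5.99, 6.92 and 8.19 CPM without light to 15.6, 13.4 and 14.1 CPM after light (1.03 ± 0.16, adjusted p = 0.00159), as did the tropomyosin Tpm3 (0.80 ± 0.10). Ndrg1 and Sept4 fell, by 0.69 and 0.52 on the log2 scale. Among amacrine genes Gjd2, which encodes a gap junction protein, fell by 0.60 on the log2 scale (adjusted p = 0.000407). Bulk RNA does not show in which cells it fell. Among Müller genes the factor Sox9 rose, from 7.11, 8.65 and 7.76 CPM without light to 14.7, 14.4 and 15.4 CPM after light (0.92 ± 0.17, adjusted p = 0.00352).

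Impg2 and Rbp3, both made by photoreceptors for the matrix around them, had the highest and the third highest gain in mean CPM of all genes tested but did not pass the test. Rbp3 stood at 6742, 6905 and 7833 CPM without light and 8035, 7440.2 and 7916 CPM after light (0.12 ± 0.12, adjusted p = 0.555). No-light replicate 3 lay above light replicate 2 in Rbp3. Impg2 averaged 948 ± 291 CPM without light and 1794 ± 368 CPM after light (SD, n = 3).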
